A study of Mus musculus with 6 samples.

Results

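Resting splenic B cells were compared with mouse embryonic fibroblasts (MEF) by 5C (chromosome conformation capture carbon copy) across the immunoglobulin heavy chain (Igh) locus on chromosome 12. In 5C, fragments of crosslinked DNA that lay close together are ligated, and each junction is counted as the reads of 1 forward and 1 reverse primer. All 12656 Igh primer pairs entered, out of 13256 primer pairs within a chromosome in the series, and the 600 pairs of a gene desert on chromosome 5 served as the control. The MEF were taken from culture. The B cells were negative for CD43 and were used straight after isolation from the spleen with magnetic beads. Each cell type had 2 libraries, which the series text calls biological replicates; strain and age were not given in the sources used here. Cell type, lineage and culture history cannot be told apart, and 5C reads hold no marker by which the identity of the cells could be checked.

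The Igh locus holds, from one end to the other, a regulatory region with enhancers and CTCF sites (3′RR), the constant genes that encode antibody classes, the intronic enhancer with the J segments, the D segments, and a long array of V genes. B cells assemble an antibody gene by joining 1 V, 1 D and 1 J segment, which removes the DNA between the joined segments from that allele, and fibroblasts do not rearrange the locus. The intronic enhancer and the 3′RR are known to contact each other in B cells, and the 3′RR controls class switching and high expression of the heavy chain. On a rearranged allele the fragments on either side of the removed DNA lie closer together, while separations and distance trends here follow mm9 positions. A rise across removed DNA cannot be told apart from a rise at the full separation. A library from many B cells mixes alleles with different deletions, so fewer copies of a fragment and fewer contacts per copy cannot be told apart from the reads of a primer pair alone. Reads of an Igh fragment with the gene desert, which no contact inside the locus enters, are therefore given beside the results as a measure of how well a fragment was recovered.

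Fragments are named as the authors numbered their forward (FOR) and reverse (REV) primers. The 225 covered fragments were placed in 10 regions by position (mm9): a 3′ flank (fragments from 114339456 to 114420752), the 3′RR (114434637 to 114480873), the constant genes (114486613 to 114656272), the first constant gene (Ighm) with the enhancer, J and part of the D segments (enhancer-D-J, 114656273 to 114691293), the V-D intergenic region with the end of the D cluster (114722112 to 114794187), proximal V (114809751 to 115096374), middle V (115139357 to 115709849), near distal V (115723372 to 116439886), far distal V (116539430 to 117190694) and a 5′ flank (117265258 to 117350186). The libraries held 20580457 to 24191175 valid read pairs. Of these, 91.3% to 92.6% joined Igh fragments, and 2.02% to 3.41% joined the 2 chromosomes. Replicates correlated at r = 0.942 in MEF and 0.955 in resting B cells over the log2 reads of primer pairs, which share fragments and library, and libraries of different cell types at 0.780 to 0.804. From 28.0% to 39.9% of Igh reads fell on only 10 primer pairs.

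Contacts split by the part of the locus. Pairs within the constant side (3′ flank, 3′RR, constant genes and enhancer-D-J) and pairs joining it to V genes were mostly higher in resting B cells, and pairs joining V genes to V genes were mostly lower. Of 11584 Igh pairs with enough reads to test, 1850 rose and 1971 fell, or 33.0% in all (16.0% higher and 17.0% lower; edgeR quasi-likelihood with Benjamini-Hochberg at 0.05), and the median log2 fold was 0.01. Among 956 pairs of the constant side, 553 rose and 74 fell, with a median fold of 1.47. Their median level was 11.6 and 13.1 CPM in MEF replicates 1 and 2 against 35.6 and 34.5 CPM in the resting B replicates, where CPM is reads per 1000000 cis reads after TMM scaling. Both resting B libraries lay above both MEF libraries in 71.3% of these pairs, against 34.4% of all tested Igh pairs (69.8% of which did not overlap in either direction). Among 4030 pairs of the constant side with V genes, 998 rose and 201 fell (median 0.80). Among 4474 pairs of V with V genes, 53 rose and 1497 fell (median -0.93). Their median level was 7.26 and 7.43 CPM in MEF against 4.21 and 3.94 CPM in resting B cells, and both resting B libraries lay below both MEF libraries in 62.0% of them, against 35.4% of all tested Igh pairs.

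The gene desert moved in one direction as well. Of its 198 tested pairs, 8 rose and 54 fell, or 31.3% (4.04% higher and 27.3% lower), with a median log2 fold of -0.57, which stands beside 33.5% of V-V pairs that fell. The scaling sets this level: the median of all Igh pairs was 0.01 with TMM, 0.27 with total cis reads and 0.51 with desert reads as library size. Scaled to the desert, the V-V pairs kept a median of -0.43 with 87 higher and 735 lower, while the desert pairs had a median of 0.02 with 18 higher and 19 lower. The constant side then had a median of 1.96 with 594 higher and 20 lower. Without resting B replicate 2, 828 V-V pairs fell, and 556 pairs of the constant side with V rose. With pro-B libraries added to the fit, which shares 1 spread over all cell types, 247 Igh pairs rose and 259 fell.

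**Figure D1:**
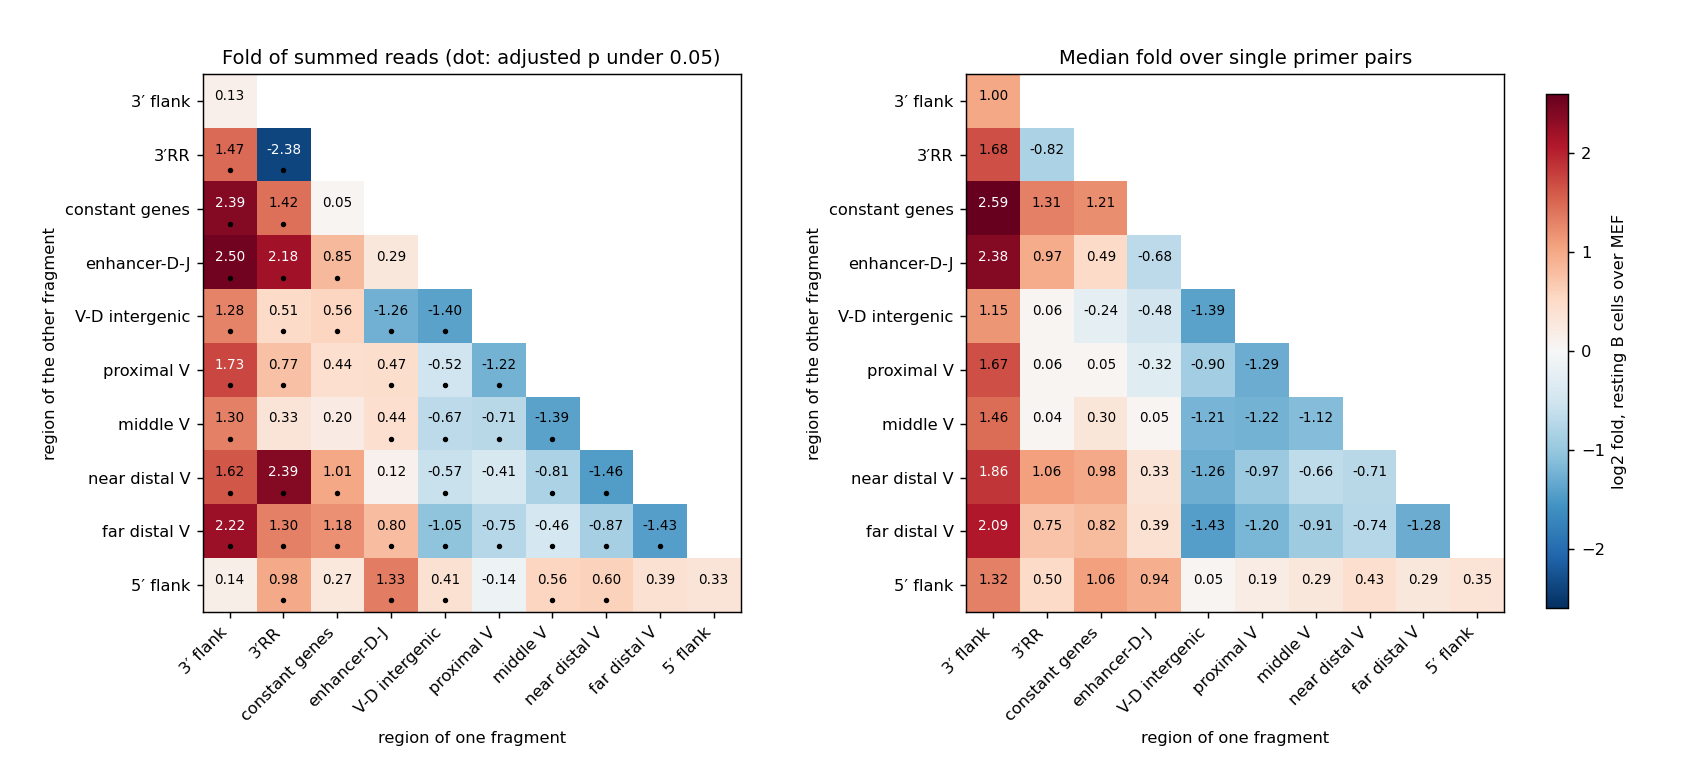
Log2 folds of resting B cells over MEF for each pair of the 10 regions: left, the fold of the summed reads, with a dot where the adjusted p was under 0.05; right, the median fold over the single primer pairs of the same region pair. The column of the 3′ flank is red in both panels, the block of V regions is blue in both, and sums within a region differ from the medians, as for the constant genes (0.05 against 1.21).

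The flank 3′ of the regulatory region rose with nearly every part of the locus. Of 1677 tested pairs with a fragment in it, 836 rose and 3 fell, with a median log2 fold of 1.75, and its 16 fragments all had a median fold above 0. The reads it shared with the constant genes were 1091 and 1646 CPM in MEF against 7265 and 7091 CPM in resting B cells, which gives a log2 fold of 2.39 ± 0.21 (SE, n = 2 libraries per cell type; edgeR, adjusted p = 8.44e-19), and 177 of 199 single pairs rose while 0 fell. With enhancer-D-J the sums were 294.1 and 356.1 CPM against 1741 and 1949 CPM (2.50 ± 0.22, adjusted p = 2.40e-18). With the far distal V genes, at the other end of the V array, they were 366.9 and 464.3 CPM against 2000 and 1879 CPM (2.22 ± 0.22, adjusted p = 4.78e-16), a fold of 1.57 (adjusted p = 8.73e-05) once the distance trend of each library, its fall in reads with separation, was removed. In each of these 3 sums every resting B library lay above every MEF library. Reads of its fragments with the gene desert had a median log2 fold of 0.27, with 11 of 16 above 0. After an offset for the desert reads of both fragments, the median over its pairs was 1.68, with 299 higher and 1 lower.

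The test of these sums estimates 1 spread over all 55 region pairs (110 total degrees of freedom), and their small adjusted p-values rest on that. In all, 26 of 55 region pairs rose and 16 fell (47.3% and 29.1%, 76.4% in all). Of these, 14 rises and 3 falls kept their call whichever library was left out, and in 48 of 55 the cell types did not overlap. Without resting B replicate 1 the counts were 18 and 3, and without resting B replicate 2 they were 16 and 3. With total cis reads in place of TMM 6 and 5 passed. The 3′ flank then had folds of 2.73 with enhancer-D-J and 2.45 with far distal V that did not pass (edgeR, adjusted p = 0.103 for each). Its fold with the constant genes, 2.59, passed (edgeR, adjusted p = 0.0455).

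The 3′RR was not uniform. Toward the constant genes its sums were 8065 and 7085 CPM in MEF against 19957 and 20653 CPM in resting B cells (1.42 ± 0.24, edgeR, adjusted p = 1.05e-07), and toward enhancer-D-J 893.0 and 788.1 CPM against 3409 and 4220 CPM (2.18 ± 0.21, adjusted p = 2.85e-16). Within the 3′RR the sum fell from 242083 and 95868 CPM to 32338 and 32389 CPM (-2.38 ± 0.59, adjusted p = 0.000240). One pair, FOR_28 (114465909 to 114474052) with REV_24 (114447061 to 114449887), held most of those reads in MEF: 3460959 and 2024765 reads in MEF against 374831 and 315936 in resting B cells. Without the 10 strongest pairs the fold was -0.54 and did not pass, with the offset for desert reads it was 0.02, and without resting B replicate 1 or 2 it did not pass (-2.38 and -2.37).

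The 8 fragments of the 3′RR differed among themselves. REV_27 (114459545 to 114465908), REV_29 (114474053 to 114474922) and FOR_31 (114477117 to 114480873) rose with 64 of 111, 45 of 109 and 53 of 112 partners, and 1, 1 and 0 partners fell. Without resting B replicate 2, 42, 24 and 34 of their partners rose. Their desert reads had folds of 0.78, 0.91 and 0.28 (edgeR, adjusted p = 0.282, 0.131 and 0.686), and with the offset for desert reads 5, 3 and 12 of their partners rose and 0 fell, with medians of 0.53, 0.47 and 1.28. FOR_28, which lies between REV_27 and REV_29, rose with 27 of 112 partners and fell with 12 (median 0.04). Its desert fold was -1.18 (adjusted p = 0.0576), and with the offset 26 partners rose and 0 fell (median 1.41). At the other end, REV_22 (114434637 to 114441221) rose with 24 of 101 partners and fell with 8, and FOR_25 (114449888 to 114450784) rose with 23 of 90 and fell with 6. Of their partners 3 and 1 rose and 1 and 2 fell with the offset. FOR_23 (114441222 to 114447060) and REV_24 rose with 5 of 80 and 3 of 81 partners, and 22 and 28 fell. The adjacent fragments FOR_23 and REV_24 shared 3308 and 2632 reads in MEF against 77 and 43 in resting B cells (-5.81 ± 0.48, edgeR, adjusted p = 0.000223). The desert reads of these 2 fragments also had folds of -1.65 and -1.70 (adjusted p = 0.0536 for each), and with the offset for desert reads 7 partners of FOR_23 rose and 2 fell, and 9 and 2 of REV_24. Without MEF replicate 2, 5 partners of FOR_23 and 13 of REV_24 fell; without resting B replicate 2 the numbers were 6 and 16, and without MEF replicate 1 12 and 9.

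With V genes the 3′RR rose in sums past the threshold with far distal V (706.2 and 642.6 CPM in MEF, 1627 and 1701 CPM in resting B cells; 1.30 ± 0.21, edgeR, adjusted p = 6.97e-08) and with proximal V (0.77 ± 0.21, adjusted p = 0.000661). Averaged over single pairs the proximal V fold was 0.15 (limma, adjusted p = 0.183), and the sum did not pass without MEF replicate 1 (0.55) or resting B replicate 2 (0.68). With the distance trend of each library removed, the far distal V fold was 0.70 and still passed (adjusted p = 0.00529). Neither sum passed with the offset for desert reads, at 0.92 for far distal and 0.49 for proximal V (adjusted p = 0.144 and 0.427). With near distal V the sum was 14079 and 5630 CPM in MEF against 28003 and 75121 CPM in resting B cells (2.39 ± 0.33, edgeR, adjusted p = 3.52e-10). That sum rested on FOR_31 with REV_545 (116342486 to 116353413), 1869 kb apart, which had 96787 and 41877 reads in MEF against 594468 and 1520284 in resting B cells (3.70 ± 0.82, adjusted p = 0.00924). Without this pair the sum passed as a fall (-1.18, adjusted p = 1.62e-07), and without the 10 strongest pairs it was -1.17 and did not pass (adjusted p = 0.104). Without MEF replicate 1 or 2 the whole sum did not pass (3.09 and 1.83). Another fragment of the 3′RR, FOR_25, went the other way with the same REV_545, from 113701 and 81320 reads to 8673 and 11915 (-3.42 ± 0.49, adjusted p = 0.00151). Counted singly, 51 of the 137 pairs between the 3′RR and near distal V rose and 9 fell, with a median fold of 1.06.

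**Figure D2:**
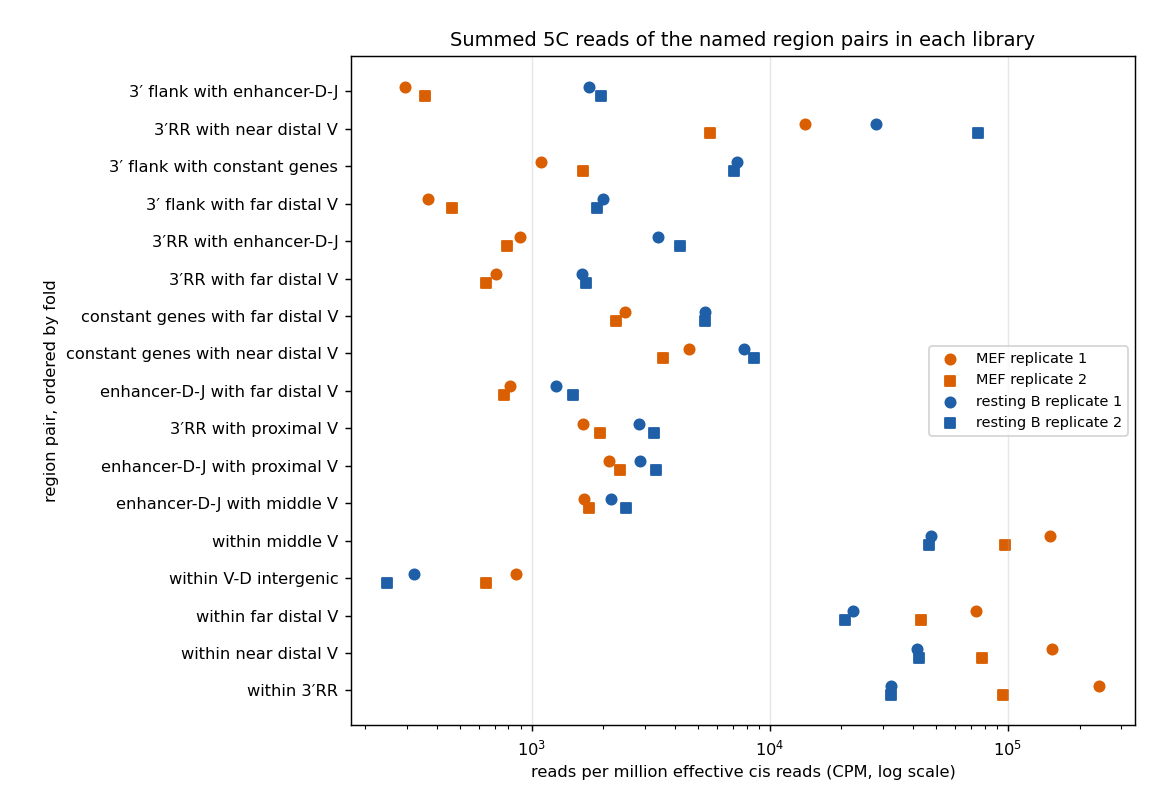
Summed reads of the 17 named region pairs in each library, in CPM on a log axis, ordered by fold; circles and squares are replicates 1 and 2, orange is MEF and blue is resting B cells. The resting B libraries lie above both MEF libraries in the upper 12 pairs and below them in the lower 5, and the replicates of the 3′RR with near distal V lie furthest apart.

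REV_81 (114664824 to 114667095), the fragment at the textbook position of the intronic enhancer, was higher with most of the locus. Of its 111 tested partners 75 rose and 0 fell, with a median log2 fold of 1.63, and its desert reads had a fold of -0.01. Its sum with the 3′ flank was 39.5 and 47.7 CPM in MEF against 633 and 769 CPM in resting B cells, and all 8 partners there rose (median 4.11). With the 3′RR it had 168 and 120 CPM against 1060 and 1666 CPM, and all 4 partners rose (median 2.80). With the V regions, 6 of 9 proximal, 9 of 25 middle, 18 of 21 near distal and 11 of 14 far distal partners rose, with medians of 1.33, 0.82, 1.80 and 1.81. The V-D intergenic region was the one with 0 rising partners of 3 (median 0.18).

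The strongest of these contacts by p joined the enhancer fragment to FOR_415 (115816276 to 115822016) in the near distal V genes, 1153 kb away by mm9 position. It had 188 and 375 reads in MEF against 7619 and 7178 in resting B cells, which gives a log2 fold of 4.69 ± 0.33 (edgeR, adjusted p = 0.000211), and 4.65 with the offset for desert reads. FOR_14 (114394005 to 114395286) in the 3′ flank gave 71 and 85 reads with the enhancer fragment against 2058 and 1884 (4.56 ± 0.36). FOR_34 (114491123 to 114493851), among the constant genes next to the 3′RR, gave 378 and 593 against 6268 and 6739 (3.69 ± 0.31). On either side of REV_81, 39 of 103 partners of FOR_80 (114664064 to 114664823) and 24 of 105 of FOR_82 (114667096 to 114667886) rose. Without resting B replicate 2, 14 partners of FOR_82 rose. With the offset for desert reads, 29 partners of REV_81 and 13 of FOR_80 rose and 0 fell, while 2 of FOR_82 rose and 1 fell; the desert folds of FOR_80 and FOR_82 were 0.04 and 0.42.

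**Figure D3:**
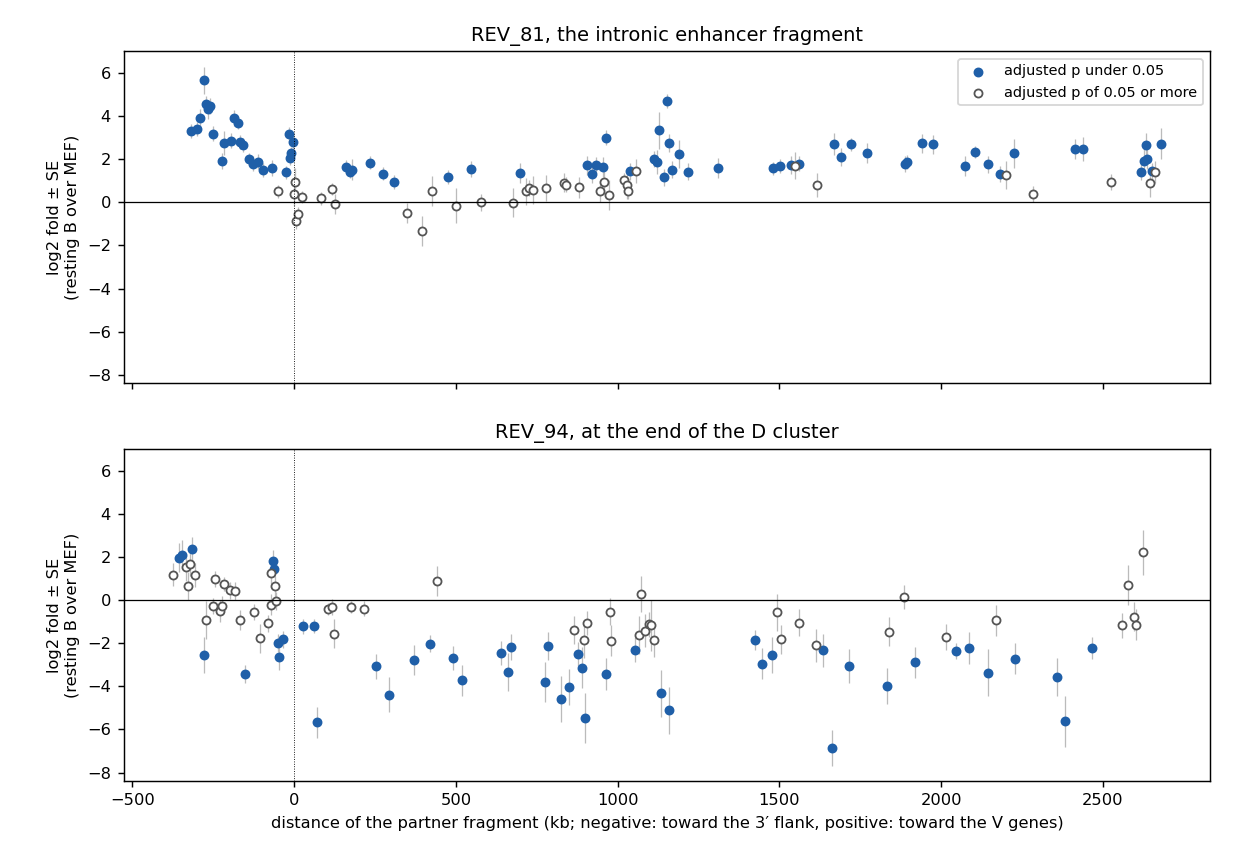
Log2 folds ± SE of resting B cells over MEF for every tested partner of the enhancer fragment REV_81 (top) and of REV_94 at the end of the D cluster (bottom), by distance of the partner in kb; filled points passed the threshold. Of the partners of REV_81, 75 rose and 0 fell. Of those of REV_94, 5 rose and 43 fell. Most of the fallen ones lie toward the V genes, as do most of its tested partners.

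A step ran through the enhancer-D-J region itself. Its 13 fragments, read from the constant genes toward the V genes, held 8 with a median fold above 0 (0.41 to 1.63) and then 5 with a median below 0 (-1.19 to -0.44). The change lay between REV_83, which ends at 114670119, and FOR_84, which begins at 114670120, on the D side of the textbook position of the J segments. This boundary was set from the values, so the counts on its sides are a description. On the constant side of it 276 of 822 pairs rose and 21 fell (median 1.02), and on the D side 9 of 528 rose and 134 fell (median -0.85). With the constant genes, the 8 fragments had 4665 and 3711 CPM in MEF against 9723 and 10475 CPM in resting B cells. The 5 D-side fragments had 1991 and 2130 CPM against 1128 and 1198 CPM. Their reads with far distal V were 339.9 and 337.2 CPM in MEF against 171.6 and 232.1 CPM in resting B cells, where those of the other 8 were 465.4 and 422.4 against 1094 and 1252 CPM. The libraries of the cell types did not overlap in any of these 4 sums, which the choice of the boundary favoured. They did not overlap in 48 of the 55 region pairs either. The one region with which the D-side fragments rose more than they fell, 6 against 0 of 40 pairs, was the 3′ flank (median 1.03). Desert reads had a median fold of 0.32 over the 8 fragments (-0.25 to 0.88) and of -0.02 over the 5 (-0.16 to 0.32). With the offset for desert reads the median over the pairs of the 8 was 0.89, with 95 higher and 8 lower. For the pairs of the 5 it was -0.92, with 2 higher and 18 lower. With desert scaling the medians were 1.50 and -0.39. What part recovery has in the step was not tested. Without resting B replicate 2, 84 D-side pairs fell.

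The low folds went on past the D cluster. REV_94 (114722112 to 114723013) rose with 5 of 99 partners and fell with 43, with a median of -1.56 and a desert fold of -0.18. With the offset for desert reads REV_94 rose with 1 partner and fell with 5 (median -1.26). Its reads with middle V genes were 119 and 93.0 CPM in MEF against 22.4 and 26.1 CPM in resting B cells, and 14 of 20 partners there fell. The largest of its named falls, with FOR_556 (116385510 to 116386658) in near distal V, went from 156 and 196 reads to 2 and 1 (-6.86 ± 0.83, edgeR, adjusted p = 0.000595). REV_94 rose with FOR_78 (114659959 to 114662158), which lies past the enhancer on its constant-gene side, from 176 and 339 reads to 769 and 667 (1.44 ± 0.34, adjusted p = 0.0120). Without MEF replicate 1, MEF replicate 2 or resting B replicate 2, 21, 22 and 28 of its partners fell. FOR_103 (114747437 to 114750051), the next covered fragment toward the V genes, fell with 11 of 111 partners and rose with 3. Its median fold was -0.57, and -0.42 and -0.53 without MEF replicate 2 and resting B replicate 2. IGCR1 is a CTCF-bound element that insulates the D segments from the V genes. Its position relative to REV_94 and FOR_103 was not checked against an mm9 annotation. With the offset for desert reads FOR_103 rose with 0 partners and fell with 1. Its strongest fall by p, with REV_85 (114672759 to 114675715) among the D segments, went from 25393 and 20362 reads to 5510 and 4705 (-2.34 ± 0.38, adjusted p = 0.00263). Over the whole V-D intergenic region, 18 of 508 pairs rose and 127 fell, and without MEF replicate 1, MEF replicate 2 or resting B replicate 2 the falls numbered 83, 67 and 76. With the offset for desert reads 6 rose and 7 fell. Its sum with enhancer-D-J was 2155 and 1390 CPM in MEF against 697 and 786 CPM in resting B cells (-1.26 ± 0.21, adjusted p = 1.57e-07), and its sum within itself 859 and 644 CPM against 322 and 246 CPM (-1.40 ± 0.21, adjusted p = 3.21e-09). With the distance trend removed the fold within the region was -0.86 (adjusted p = 0.00202), and with the offset for desert reads it was -0.94 and did not pass (adjusted p = 0.144).

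Among V genes, falls outnumbered rises in each class of separation, and so they did among gene desert pairs. In the desert, 2 of 57 pairs rose and 16 fell within 50 kb (median -0.63), and 4 of 56 rose and 15 fell from 50 to 100 kb (median -0.19). From 100 to 200 kb 2 of 73 desert pairs rose and 20 fell (median -0.71), and from 200 to 500 kb 0 of 12 rose and 3 fell (median -0.60). Within 50 kb, 0 of 277 V-V pairs rose and 172 fell (median -1.48). From 50 to 200 kb, 9 of 642 rose and 269 fell (median -1.02). From 200 to 500 kb, 15 of 1029 rose and 340 fell (median -0.83), where pairs of the constant side at the same separation had 152 higher and 4 lower of 233 (median 2.53). Past 500 kb, 29 of 2526 V-V pairs rose and 716 fell (median -0.89). From the D side outward, the sums within the 4 V regions had log2 folds of -1.22 ± 0.33, -1.39 ± 0.52, -1.46 ± 0.50 and -1.43 ± 0.36 (edgeR, adjusted p = 0.000710, 0.0133, 0.00734 and 0.000254). For middle V they were 150324 and 97214 CPM in MEF against 47651 and 46611 CPM in resting B cells, so the MEF replicates differed more from each other than the resting B replicates did. None of the 4 calls held without resting B replicate 1 or 2, or without the 10 strongest pairs (adjusted p = 0.112, 0.239, 0.266 and 0.105, with folds from -1.22 to -1.46). With each pair counted once the folds were -1.31, -1.04, -0.71 and -1.22 (limma, all past the threshold). With the distance trend of each library removed they were smaller, at -0.73, -0.51, -0.51 and -0.79 (edgeR, adjusted p = 0.0170, 0.0161, 0.0364 and 0.00963). Under the offset for desert reads they were -0.40, -0.85, -1.01 and -1.19, and the proximal V sum did not pass (adjusted p = 0.0852). Desert reads had medians of -0.12, -0.18, -0.10 and -0.15 over the 19, 51, 43 and 28 fragments of these regions. With the offset for desert reads the V-V median was -0.57, with 6 higher and 158 lower, against 1.11 with 193 and 17 on the constant side.

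**Figure D4:**
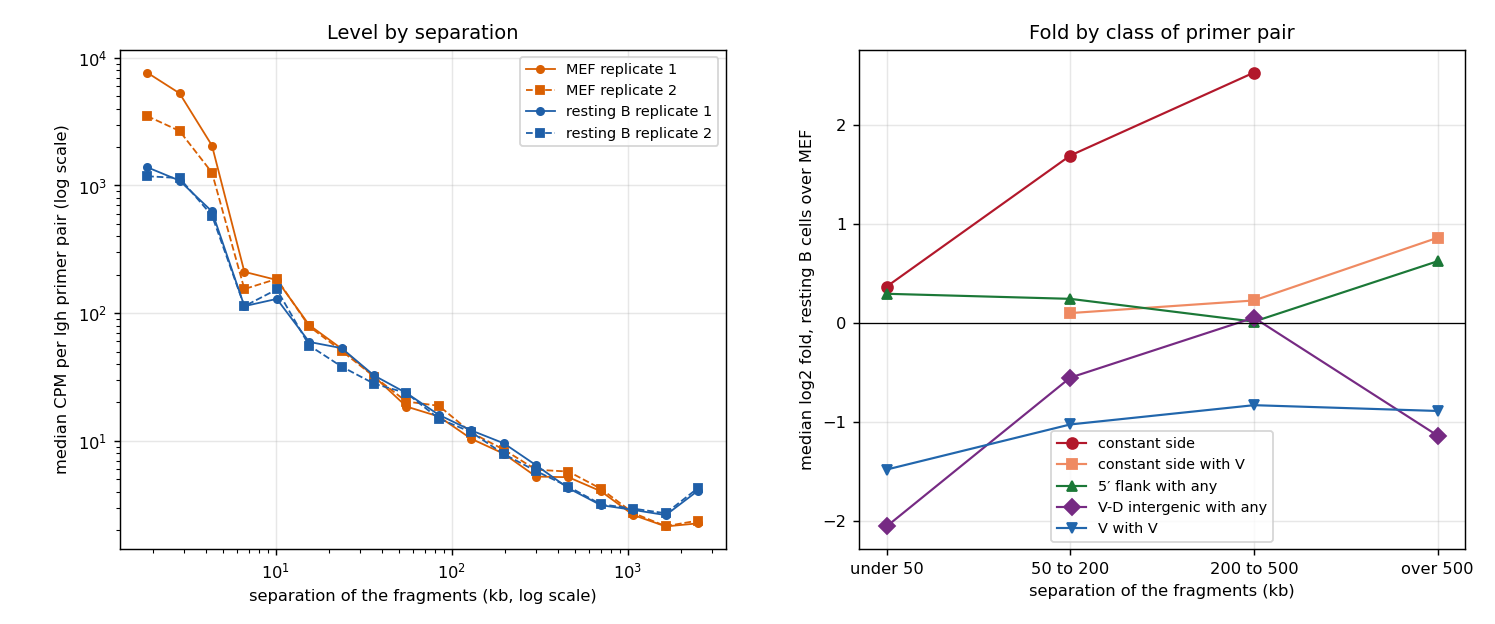
Left: median CPM per Igh primer pair by separation in kb, both on log axes, in the 4 libraries. Right: median log2 fold of resting B cells over MEF by separation for 5 classes of Igh primer pair, where the constant side rises to 2.53 at 200 to 500 kb and V with V stays between -1.48 and -0.83.

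Summed as a whole, enhancer-D-J passed with 3 of the 4 V regions. Its sum with far distal V was 811.6 and 768.8 CPM in MEF against 1268 and 1486 CPM in resting B cells (0.80 ± 0.21, edgeR, adjusted p = 0.000572), a call lost without MEF replicate 1 (0.73), MEF replicate 2 (0.71) or resting B replicate 2 (0.70). It was also lost with the distance trend removed (0.34, adjusted p = 0.0762) and with the offset for desert reads (0.59, adjusted p = 0.270). The folds with proximal and middle V were 0.47 ± 0.20 and 0.44 ± 0.21 (adjusted p = 0.0319 and 0.0466), and each of these 2 calls was lost whichever library was left out and with the offset for desert reads (adjusted p = 0.457 and 0.376). In the mean over single pairs enhancer-D-J with proximal V was -0.23, which passed as a fall (limma, adjusted p = 0.0356). The constant genes rose with near distal V, from 4592 and 3575 CPM to 7802 and 8624 CPM (1.01 ± 0.20, adjusted p = 6.32e-06), and with far distal V, from 2460 and 2267 CPM to 5363 and 5357 CPM (1.18 ± 0.20, adjusted p = 1.54e-07). With the distance trend removed the far distal V fold was 0.64 (adjusted p = 0.0204), and with the offset for desert reads it was 0.83 and did not pass (adjusted p = 0.0603). With proximal and middle V the constant genes had folds of 0.44 and 0.20, which did not pass (adjusted p = 0.0529 and 0.350).

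The 5′ flank, beyond the last V gene, had more rises than falls. Of its 1616 pairs outside the V-D region, 228 rose and 72 fell (median 0.58), and its sum with enhancer-D-J was 354.1 and 363.8 CPM in MEF against 760.8 and 1044 CPM in resting B cells (1.33 ± 0.21, edgeR, adjusted p = 2.16e-08). That fold was 0.49 (adjusted p = 0.0295) with the distance trend removed and 0.52 (adjusted p = 0.270) with the offset for desert reads. Its desert reads had the highest median of the 10 regions, 0.47, with 15 of 17 fragments above 0. With the distance trend of each library removed, 113 pairs rose and 88 fell (median 0.14), and with the offset for desert reads 21 rose and 21 fell (median 0.25). Without resting B replicate 2, 114 rose and 36 fell.

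**Figure D5:**
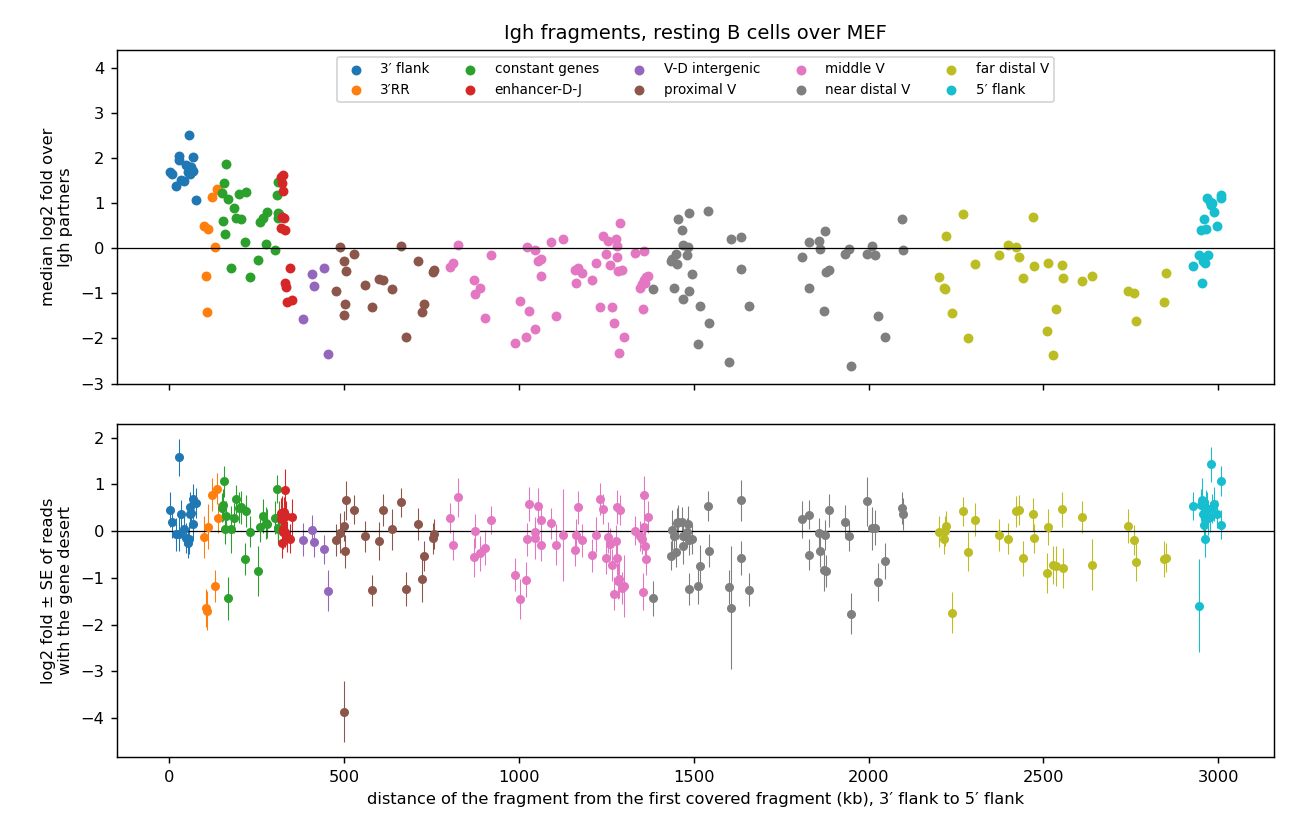
Each of the 225 Igh fragments by its distance in kb from the first covered fragment, coloured by region: top, the median log2 fold over its Igh partners; bottom, the log2 fold ± SE of its reads with the gene desert. Medians are above 0 for all 16 fragments of the 3′ flank, fall below 0 within enhancer-D-J, stay below 0 for most V fragments and are above 0 for 11 of 17 fragments of the 5′ flank.

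Fragments with lower desert reads tended to have lower contact folds. Over the 225 fragments, which share the 4 libraries, the fold with the desert and the median fold inside Igh correlated with r = 0.575 (Spearman's rho 0.601), given as a description. By region, medians inside Igh were above 0 for 6 of 8 fragments of the 3′RR, 21 of 25 of the constant genes, 0 of 5 of the V-D region, 2 of 19 proximal, 9 of 51 middle, 13 of 43 near distal and 5 of 28 far distal V fragments. Of the 225 fragments, 0 rose and 1 fell in desert reads (0.444% called by edgeR; at an unadjusted p under 0.05, 8 were higher and 25 lower, and DESeq2 called 4 and 15): REV_129 (114836439 to 114838819) in proximal V, with 3705 and 693 reads in MEF against 348 and 409 in resting B cells (-3.87 ± 0.65, edgeR, adjusted p = 0.00864). The MEF replicates differed more there than the resting B replicates did, and without MEF replicate 1 the fold was -1.96. With a replicate block it did not pass (edgeR, adjusted p = 0.240). With the offset for desert reads 485 Igh pairs rose and 218 fell, where 1850 and 1971 did without it. Depth limits this measure: the median fragment had 238 and 304 reads with the desert in MEF, against 593 and 711 in resting B cells.

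Single contacts are given in order of p among pairs over 100 kb apart, 10 in each direction. All 10 rises had an end in the constant side or the 5′ flank, with folds from 2.94 to 5.78. Beside the enhancer, 2 fragments rose with DNA in or next to the 3′RR: FOR_80 with REV_35 (114493852 to 114496828) went from 167 and 271 reads to 4063 and 4564 (4.25 ± 0.32, edgeR, adjusted p = 0.000223). FOR_78 with REV_27 went from 620 and 1137 reads to 14832 and 12699 (3.93 ± 0.31). Within the constant genes, FOR_71 (114649352 to 114649657), at the end near the enhancer, and REV_33 (114486613 to 114491122), at the end near the 3′RR, went from 291 and 342 reads to 4752 and 3532 (3.59 ± 0.33). These ends lie 161 kb apart. From the 3′ flank, FOR_11 (114387143 to 114389458) with REV_70 (114647312 to 114649351) went from 29 and 82 reads to 1030 and 929 (4.14 ± 0.42). From the 5′ flank, FOR_837 (117317889 to 117319542) with REV_435 (115877939 to 115880010) in near distal V went from 37 and 26 reads to 1938 and 1882 (5.78 ± 0.46), and the desert reads of FOR_837 had a fold of 1.43.

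All 10 falls joined V fragments to V fragments, with folds from -7.63 to -2.75. FOR_694 (116846437 to 116851009) in far distal V with REV_545 in near distal V, 501 kb apart, went from 59461 and 72860 reads to 3242 and 3512 (-4.39 ± 0.38, edgeR, adjusted p = 0.000248). REV_545 is the fragment that rose with FOR_31 of the 3′RR, and its desert fold was 0.06. FOR_702 (116864979 to 116868374) with REV_552 (116364360 to 116366864), also 501 kb apart, went from 12820 and 9418 reads to 293 and 140 (-5.89 ± 0.52). FOR_233 (115211655 to 115215965) with REV_260 (115327864 to 115330485), both in middle V, went from 1216 and 2777 reads to 100 and 84 (-4.44 ± 0.37). FOR_279 (115382611 to 115385319) with REV_335 (115605174 to 115607589) went from 177 and 243 reads to 2 and 0 (-7.63 ± 0.94), a fold set by these few reads. The 20 pairs kept their direction in all 78 fits without 1 library that tested them. Their choice by p and by lack of overlap in these same libraries favoured that, so it is no separate support. With the offset for desert reads 4 of the 20 calls were lost: FOR_34 with REV_75 among the rises, and FOR_769 with REV_464, FOR_126 with REV_450 and FOR_174 with REV_235 among the falls.

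Separations over 1000 kb held more of the reads in resting B cells. Pairs over 500 kb apart held 8.13% and 9.31% of Igh reads in MEF against 12.9% and 18.0% in resting B cells (exact two-sided permutation test, p = 0.333, the smallest that 2 against 2 libraries can give). Without the 10 strongest pairs the shares were 11.3% and 12.4% against 15.0% and 16.5%. From 500 to 1000 kb the groups overlapped, at 3.27% and 4.01% in MEF against 3.53% and 3.64% in resting B cells. In that range 136 of 2527 tested pairs rose while 474 fell (median log2 fold -0.39). From 1000 to 2000 kb the shares were 3.85% and 4.06% against 7.25% and 12.2%. Without the 10 strongest pairs, which include FOR_31 with REV_545, they were closer, at 5.02% and 5.26% in MEF against 6.30% and 6.91% in resting B cells. Past 2 Mb, pairs that join the ends of the locus held 1.01% and 1.24% against 2.16% and 2.16%, and 406 of 1593 tested pairs rose while 82 fell. Between 20 and 50 kb the shares were 19.7% and 14.6% in MEF against 7.67% and 6.69% in resting B cells. Without the 10 strongest pairs, which include FOR_28 with REV_24, they were 5.86% and 6.85% against 8.70% and 8.31%, so the direction turned. The desert spans 284 kb, and its share within 50 kb was 95.6% and 93.0% in MEF against 93.0% and 93.9% in resting B cells, with overlapping groups.

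Loops were counted as pairs over 50 kb apart whose reads stood above a model of separation and primer strength, by 2 or more standardised residual units in each replicate. There were 54 in MEF and 89 in resting B cells, and 38 were shared, or 70.4% of the MEF loops and 42.7% of the resting B loops. At 3 or more units there were 41 and 54. Within the constant genes there were 0 in MEF and 5 in resting B cells, and between the 3′RR and enhancer-D-J 0 and 3. Between near and far distal V there were 10 in each, of which 5 were shared. Of the 51 loops called in resting B cells alone, 28 had a primer pair that rose and 2 one that fell; of the 16 called in MEF alone, 0 rose and 14 fell. The same reads entered both measures, so these counts are a description. FOR_31 with REV_545 stood out most in resting B cells (residuals 47.8 and 32.4) and was a loop in MEF as well (residuals 14.3 and 15.3). FOR_165 (114973711 to 114977500) in proximal V with REV_819 (117289594 to 117292548) in the 5′ flank, 2315 kb apart, was a strong loop in both cell types, with 29102 and 19214 reads in MEF against 16225 and 16643 in resting B cells; its fold of -0.76 ± 0.41 did not pass (edgeR, adjusted p = 0.179).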

How the data were processed

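Per the file headers, the authors deposited raw counts of valid 5C read pairs per forward and reverse primer, from reads 42 bases long. Novoalign and the build mm9 are named in the submitters' processing notes, without a version. Pairs not listed were set to 0. Duplicates from amplification are counted, since no molecular identifiers are recorded, so a difference in reads is not a difference in independent molecules.

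The 4 libraries were grouped by title and fitted alone with edgeR 4.0.16 (R 4.3.3): a pair was tested where 2 or more libraries held 10 or more reads, with TMM over all tested cis pairs of Igh and desert (factors 0.698 and 1.17 for MEF replicates 1 and 2, 1.16 and 1.06 for resting B), a quasi-likelihood test of cell type, and Benjamini-Hochberg adjustment over Igh and desert pairs separately, with a threshold of 0.05. Region sums used the same scaling, and reads of a fragment with the desert used TMM over fragments. SE is the fold divided by the square root of F. Offsets took out, library by library, a lowess curve (span 0.3) of log reads on separation, or the reads of both fragments with the desert. Where each pair was counted once, mean log2(CPM + 1) was tested with limma 3.58.1. For loops, each library was fitted by quasi-Poisson regression on primer effects and log separation (natural spline, 4 df). DESeq2 1.42.0 and the other alternatives are in the closing section.

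Regions were set from approximate textbook positions, since no mm9 annotation was used, and their edges are approximate; single V genes are not named. The members, regions and lists were chosen with earlier results of these data known. Named pairs were the first 10 per direction by p past the threshold, over 100 kb apart, without overlap of the cell types and with each fragment used once per direction. Named region pairs were the 5 largest folds per direction and those of the constant genes, 3′RR or enhancer-D-J with V regions. On simulated counts for 11545 tested Igh pairs, 100 changes of 4-fold and 100 of 16-fold were planted. The test recovered 42% and 88% of them, with 3 false calls among unchanged pairs. The simulation changed few pairs and gave pairs of equal level the same spread, while 33.0% of tested pairs were called in the data. These rates therefore need not hold for the data.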

Additional observations from a re-analysis of the deposited data

How the results depend on the processing

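The counts of called features moved more than their directions. Igh pairs numbered 1165 to 1804 higher and 1094 to 1653 lower without 1 library, 247 and 259 with all 6 libraries, and 485 and 218 with the offset for desert reads; lower pairs numbered 1285 with total cis reads and 922 with desert reads as library size. Desert pairs numbered 3 to 26 higher and 24 to 79 lower without 1 library, 0 and 6 with all 6 libraries, and 18 and 19 scaled to the desert; 5 rose with no filter and 30 fell with total cis reads. Region pairs numbered 16 to 20 higher and 3 to 17 lower without 1 library, 11 and 6 with the offset for desert reads, and 6 and 5 with total cis reads. Region pairs that fell numbered 9 with all 6 libraries, 8 with a replicate block, 9 without the 10 strongest pairs, and, under edgeR's older quasi-likelihood method chosen after seeing the data, 5 scaled to the desert and 7 with total cis reads. Region sums scaled to the desert could not be fitted with the newer method.

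Replicate numbers did not pair the libraries (correlation of same-numbered deviations 0.0055); the replicate block gave 1881 higher and 1941 lower Igh pairs. Fragments called for desert reads numbered 0 to 13 higher and 1 to 17 lower without 1 library, 4 and 15 with DESeq2, 2 and 11 with the older quasi-likelihood method, and 0 lower with the replicate block. Among the 17 named region pairs signs turned in 4 cases: the fold within the 3′RR was 0.02 (0.0178) with the offset for desert reads, 3′RR with near distal V was -1.18 without FOR_31 with REV_545 and -1.17 without the 10 strongest pairs, and enhancer-D-J with proximal V was -0.23 with limma. Among the other called region pairs, constant genes with V-D intergenic went from 0.56 to -0.21 with limma, V-D intergenic with proximal V from -0.52 to 0.07 with the offset for desert reads, and V-D intergenic with 5′ flank from 0.41 to -0.37 with the distance trend removed. With that trend removed, 22 of the 26 rises and 11 of the 16 falls kept their call. The difference in the share of reads over 500 kb, 6.74 percentage points, was 4.21 to 9.27 without 1 library and 3.88 without the 10 strongest pairs, and resting B loops numbered 54 at residuals of 3 or more. The cause of these shifts was not tested. Of the 17 named region pairs, 45 of 68 values without 1 library kept their call and 23 lost it.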
